A study of Mus musculus with 12 samples.

Results

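Gene expression was compared between 3 Hepa1 libraries grown in medium from ferroptotic fibroblasts and 3 grown in medium from control fibroblasts. These 6 libraries are the Hepa1 columns of a count table of 12 libraries, and 13169 of its 55487 genes had enough reads in them to be tested. Hepa1 is a mouse hepatoma line, that is, liver tumour cells kept in culture, and its genotype label reads wild type. The media came from immortalized mouse embryonic fibroblasts (iMEFs), either control cells or cells made to express Bach1 again, which the labels call ferroptotic. The iMEFs conditioned DMEM with 10% fetal bovine serum for 48 h, and Hepa1 cells then lived in it for 4 days with a daily change. Both arms also received 0.1 mM 2-mercaptoethanol and 0.4 mg/mL vitamin E, so no Hepa1 library here comes from cells in unconditioned medium or without these additions. The other 6 libraries of the series are primary MEFs labelled Bach1 knockout in the same media, and they serve below as another recipient cell. Hepa1 is 1 cell line, and nothing in the labels says whether the 3 libraries of a group came from separate cultures.

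Ferroptosis is an iron-dependent death in which membrane lipids are oxidised, and BACH1 is a repressor of genes that defend cells against it. Dying or senescent fibroblasts release growth factors, cytokines and matrix proteins, and a recipient cell reads such signals through its receptors and passes them to immediate early transcription factors such as AP-1, EGR1 and NF-kB. Liver cells answer inflammatory and growth signals by shifting between the production of plasma proteins, which mature hepatocytes secrete, and programs of proliferation, epithelial plasticity and chemokine release. The comparison therefore asks which regulators, outgoing signals, receptors, noncoding RNAs and marks of cell identity differ in Hepa1 cells between the media.

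The libraries held 18.58 M to 20.37 M reads in genes, and 3 reads corresponded to at most 0.161 CPM (reads scaled to a common library size). Of the 13169 genes tested, 58.1% passed an adjusted p of 0.05 in the quasi-likelihood test of edgeR, 29.3% upward and 28.8% downward. At least 2-fold changes that also passed the test were 6.57% of the genes, 592 upward (4.5%) and 273 downward (2.07%). Values per library below are TMM-normalised CPM, log2 changes are ferroptotic over control medium, and p-values are edgeR's, adjusted over all genes tested. Without TMM scaling the split was 4515 upward and 3169 downward, so the direction of small changes near 0 depends on the scaling. The counts of genes that rose and fell below include such changes. For the transcription factors below they were 103 up and 131 down without TMM scaling, against 91 and 146 with it. For receptors they were 73 and 78, against 67 and 87. Control libraries differed from each other more than ferroptotic libraries did, with a chi-square per degree of freedom of 2.65 to 4.13 against 1.35 to 1.71 over genes. Mitochondrial transcripts were 0.666 to 0.683% of reads in control and 0.413 to 0.427% in ferroptotic medium.

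**Figure D1:**
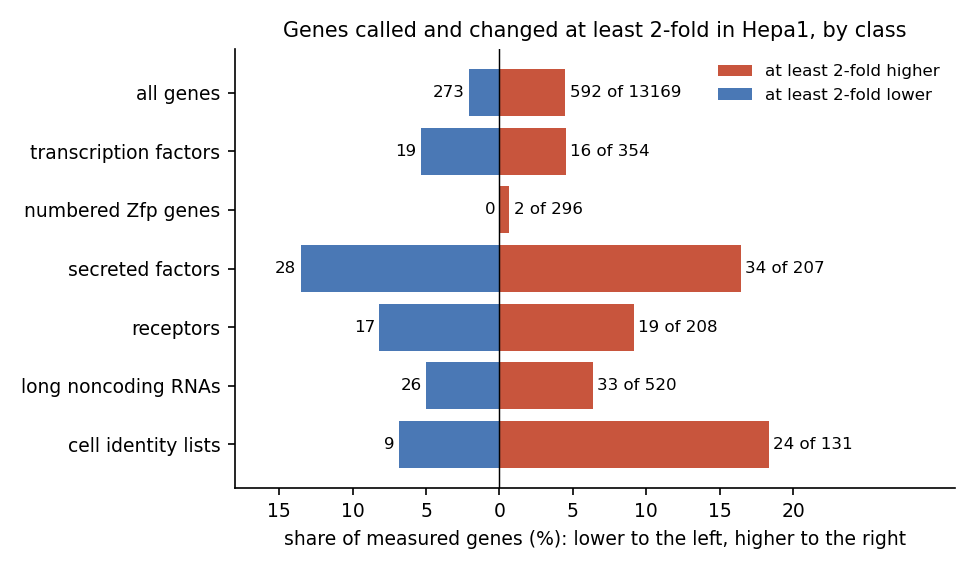
Share of the measured genes of each class that passed the edgeR test and changed at least 2-fold in Hepa1, lower to the left and higher to the right, with the number of genes beside each bar. Secreted factors had the longest bars among the regulator and signal classes, 34 of 207 higher and 28 lower, against 592 of 13169 and 273 for all genes.

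Library 3 of the ferroptotic group stood apart. Genes that MEFs express strongly and Hepa1 cells in control medium barely express were read at a higher level there than in the other Hepa1 libraries. The set holds 36 genes whose mean was 500 CPM or more in the MEF libraries and was under 0.2 CPM in the Hepa1 control libraries, and the ferroptotic Hepa1 libraries had no part in choosing it. Its reads numbered 33, 65 and 44 in the control libraries, 71 and 112 in ferroptotic libraries 1 and 2, and 926 in ferroptotic library 3. As a share of the summed MEF level this was 0.00426, 0.00827 and 0.00576% in control medium, then 0.00915, 0.0153 and 0.116%. The share in library 3 was 9.45 times the mean of libraries 1 and 2. All 36 genes had more reads in library 3 than in either of the other ferroptotic libraries, and each lay between 0.033 and 0.258% of its own MEF level, with a median of 0.105%. Lox of this set, the collagen cross-linking enzyme, had 3, 3 and 138 reads in the 3 ferroptotic libraries. Thy1, a surface marker of fibroblasts that is not in the set, had 0, 1 and 17.

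**Figure D2:**
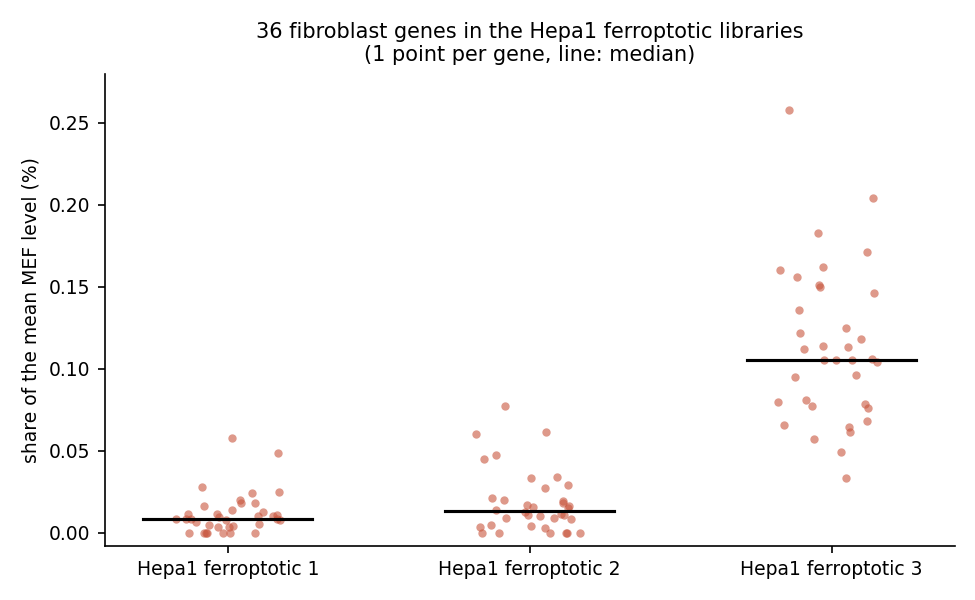
Level of each of the 36 fibroblast genes in the 3 Hepa1 ferroptotic libraries as a percentage of its mean level in the 6 MEF libraries; each point is 1 gene and the line is the median. In library 3 the genes lie between 0.033 and 0.258% with a median of 0.105%, and each gene is above its own value in the other libraries.

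The profile of these reads was also compared with each kind of MEF library. Among genes with at least 100 CPM in MEFs, the 11 genes at least 2-fold higher in MEFs in control medium stood at 0.125% of their MEF control level in library 3, and the 18 genes at least 2-fold higher in MEFs in ferroptotic medium stood at 0.132% of it. Against the MEF ferroptotic level the same genes stood at 0.378 and 0.0465%. Over the 36 genes the log2 share varied with an SD of 0.492 against the control profile and 0.994 against the ferroptotic one. The reads in library 3 were thus in closer proportion to the MEF control libraries than to the MEF ferroptotic libraries. Primary MEFs and the iMEFs that conditioned the medium are both fibroblasts, so reads from the one and the other cannot be told apart here.

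At 0.116% of the MEF level, 23529 reads of library 3 would be of this kind, 0.116% of its total. They would exceed 10% of the reads for 47 of the 13169 genes tested and for 16 of the 592 genes at least 2-fold higher. When library 3 was left out, 13 of these 592 genes were no longer called upward, against 4 without library 1 and 6 without library 2. For 6 of the 13 the proportional share accounts for over 10% of library 3's reads: Abi3bp, Col1a2, Cxcl12, Fstl1, Mgp and Ogn. Col1a2, the second chain of type I collagen, had 12, 13 and 13 reads in control medium and 23, 19 and 368 in ferroptotic medium, where 350.6 were expected in library 3 from that share. Its log2 change of 3.37 (adjusted p = 0.000443) became 0.72 (adjusted p = 0.0639) without library 3. The chemokine gene Cxcl12 had 5, 11 and 6 reads in control medium and 11, 15 and 217 in ferroptotic medium, with 243.9 expected in library 3, and its log2 change of 3.39 became 0.81 (adjusted p = 0.123). Both stay in the counts of rises below, and are named there. The other 7 genes lost (Gm45151, Grtp1, Ldb3, Mettl15, Proca1, Slc1a3 and Ucp2) had at most 29 reads in any library and no expected share above 1 read.

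Among transcription factors, most AP-1, ATF and CREB genes were lower in ferroptotic medium, with Bhlhe40 the largest fall, and factors of the cell cycle such as Foxm1 were higher. Of 354 measured factors, leaving aside numbered zinc finger genes, 91 rose and 146 fell (66.9% called, against 58.1% of all genes). Changes of at least 2-fold numbered 16 upward and 19 downward, 9.89% of the class against 6.57% of all genes. The median log2 change of the class was -0.07, against 0.00 for all genes tested. Among 296 numbered Zfp genes, which include RNA-binding proteins of the Zfp36 family, 48 rose and 85 fell, but only 2 changed 2-fold, both upward.

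AP-1 is a dimer of JUN, FOS and ATF proteins that switches on genes within hours of a growth or stress signal. Of 24 measured AP-1, ATF and CREB genes, 16 fell and 3 rose, where 28.8% of all genes fell and 29.3% rose, and the family's median log2 change was -0.31. Junb read 443.3, 446.5 and 503 CPM in control medium and 165.9, 161.6 and 161.5 CPM in ferroptotic medium. The groups lay far apart, with a log2 change of -1.51 (SE 0.0411, adjusted p = 6.78e-22). Fosl1, which encodes FRA1, read 35.1, 35.1 and 41.6 CPM and then 11.9, 9.76 and 9.43 CPM, a log2 change of -1.84. Fosl2 fell by 1.27 and Jun, at 68.7 CPM in control against 35.3 CPM, by 0.96 on the log2 scale. The small MAF proteins pair with both AP-1 and NRF2 or BACH1 at antioxidant genes, and Maff fell from 161.2, 163 and 180.7 CPM to 57.8, 59.1 and 53.3 CPM (log2 change -1.57) with Mafk at -1.09. Maf itself, the large MAF factor c-MAF, went the other way. It read 19.4, 19.4 and 19.1 CPM in control and 72.7, 73.5 and 70.7 CPM in ferroptotic medium (log2 change 1.90, SE 0.0531, adjusted p = 1.11e-21).

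Egr1, the zinc finger factor of the immediate early response, read 178.8, 213.4 and 194.9 CPM in control and 79.1, 83.1 and 90 CPM in ferroptotic medium (log2 change -1.22). Myc fell by 1.09 and the orphan nuclear receptor gene Nr4a1 by 1.56 on the log2 scale. Bhlhe40, a repressor that responds to hypoxia and to the circadian clock, had the largest fall of the class. It read 261.4, 271.5 and 286.8 CPM in control medium and 67.6, 65.5 and 62.1 CPM in ferroptotic medium, a log2 change of -2.07 (SE 0.0423, adjusted p = 1.62e-24). In the REL, IRF and STAT family 8 of 21 genes rose and 9 fell (81.0% called, against 58.1% of all genes). Relb, a subunit of noncanonical NF-kB, fell by 1.14, while the interferon-linked gene Irf7 rose by 1.79. It went from 1.90, 2.03 and 2.37 to 8.29, 5.89 and 7.64 CPM.

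The largest rise of the class was that of Mxd3, a MAX partner that opposes MYC at its sites, at 1.90, 1.07 and 1.21 CPM in control and 9.19, 9.18 and 9.86 CPM in ferroptotic medium (log2 change 2.75, SE 0.157, adjusted p = 1.09e-14). Foxm1, which drives genes of the G2 and M phases, read 15.8, 12 and 11.9 CPM and then 59.7, 55.4 and 59.1 CPM, a log2 change of 2.14. In the family of E2F, MYB and cell cycle factors 8 of 15 genes rose and 2 fell (29.3 and 28.8% for all genes), with E2f8 at 1.22. Atoh8, a basic helix-loop-helix factor of liver and muscle, rose from 2.83, 2.39 and 2.58 to 15.8, 17.7 and 16.5 CPM (log2 change 2.68). Hlf, a PAR bZIP factor abundant in liver, went from 2.67, 1.83 and 2.37 to 9.14, 10.2 and 10.3 CPM, and Dbp of the same family rose by 0.98. Prdm1, the repressor BLIMP1, rose by 2.40, and Id3, an inhibitor of basic helix-loop-helix factors and a target of BMP signals, by 1.65 from 8.76 to 27.5 CPM. Zeb2, a repressor of epithelial genes, read 30.1, 31.1 and 30.9 CPM in control and 10.6, 10.1 and 9.43 CPM in ferroptotic medium, a log2 change of -1.61. Sox4, a developmental factor active in many tumours, fell from 932.5, 982.9 and 1026 CPM to 368.6, 364.3 and 339.7 CPM (log2 change -1.46).

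**Figure D3:**
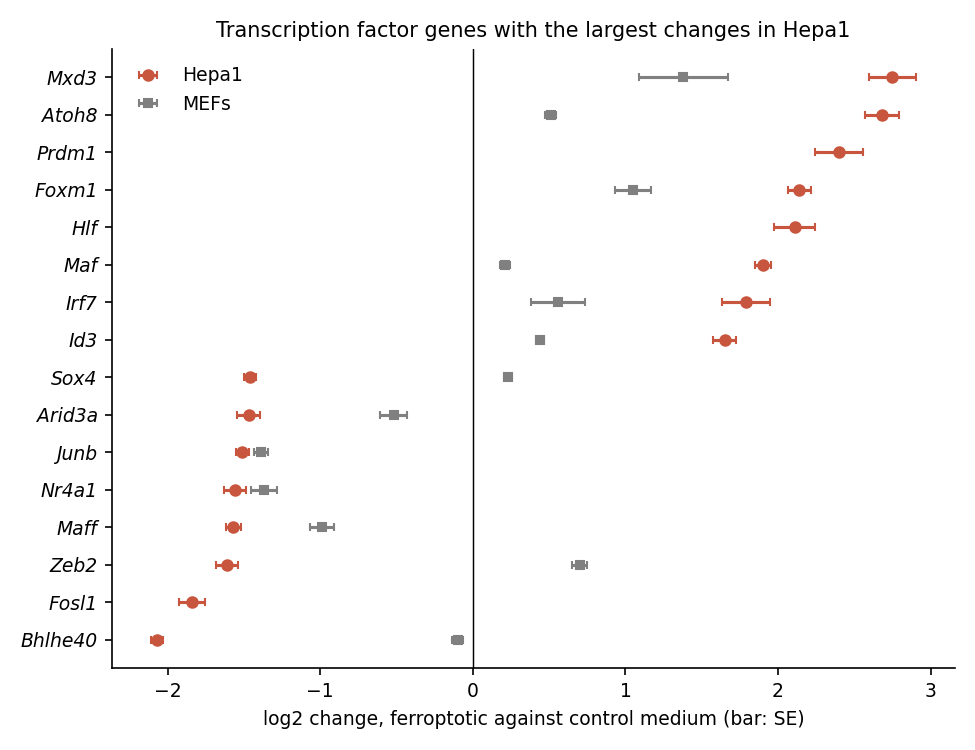
Log2 change with its standard error for the 8 top rises and 8 top falls among transcription factor genes in Hepa1 (circles, n = 3 against 3), with MEFs as squares where the gene was tested there. Mxd3 is highest at 2.75 and Bhlhe40 lowest at -2.07 in Hepa1, and Zeb2 and Sox4 lie below 0 in Hepa1 and above 0 in MEFs.

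Secreted factors changed more often than genes at large. Of 207 measured, 83 rose and 73 fell (75.4%, against 58.1% of all genes), and 34 rose and 28 fell at least 2-fold (30.0%, against 6.57%). Most chemokine genes, Ccn1 and Mmp13 were lower, and Fgf1, albumin, transferrin and most matricellular genes were higher. Of the 34 rises, 3 (Cxcl12, Fstl1 and Ogn) were lost without library 3. A secreted protein's gene is only its transcript here, and no protein was measured.

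Chemokines call leukocytes to tissue. Of 14 measured chemokine genes 8 fell and 3 rose (Cxcl15, Cx3cl1 and Cxcl12), 78.6% called against 58.1% of all genes, and the rise of Cxcl12 rests on library 3. Cxcl10, the interferon-inducible ligand of CXCR3, read 36.9, 35.9 and 53.8 CPM in control and 4.75, 2.92 and 2.95 CPM in ferroptotic medium, a log2 change of -3.57 (SE 0.152, adjusted p = 1.45e-17). Ccl2, which attracts monocytes, fell from 78.7, 90.2 and 91.3 to 13.1, 13 and 10.8 CPM (log2 change -2.82), and Cxcl2, a neutrophil attractant, from 6.94, 8.95 and 7.65 to 1.25, 1.49 and 1.40 CPM (log2 change -2.51). Cxcl16 fell by 2.05. Against these falls Cxcl15 rose from 0.463, 0.814 and 0.633 to 11.8, 12.6 and 12.9 CPM, the largest rise of the class at a log2 change of 4.27 (SE 0.163, adjusted p = 1.19e-18). Of 14 interleukin, colony-stimulating factor and interferon genes 9 fell and 4 rose (92.9% called, all genes 58.1%). Csf1, the growth factor of macrophages, fell from 503.6, 496.3 and 500.8 to 212, 215.4 and 206.8 CPM, and Il7 fell by 2.06, while Il18 rose by 1.40 and Il15 by 1.27.

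The promoters of Cxcl10 and Cxcl2 are shown because both genes fell and both carry the 9-letter NF-kB motif GGANTTTCC, read on both strands, which 1.3% of 8745 promoters of tested protein-coding genes hold in the 300 bases around their start. The 200 bases before the RefSeq start (GRCm38.p6) are given 5′ to 3′, with matches to the motifs named for each gene in capitals; other motifs are left in lower case. In Cxcl10 (chr5:92348890-92349089, minus strand) the capitals mark the NF-kB motif at bases 158 to 150 before the start and the AP-1 motif TGACTCA, here on the other strand as TGAGTCA, at bases 74 to 68. In Cxcl2 (chr5:90903699-90903898, plus strand) they mark the NF-kB motif at bases 96 to 88. Sequences like the NF-kB motif that differ from its 9 letters, such as ggggacttcc in Cxcl10, are not marked. The capitals are therefore not a full list of possible NF-kB sites. The motif GAAANNGAA (ISRE) was also searched in Cxcl10 and had no match in these 200 bases.
Cxcl10: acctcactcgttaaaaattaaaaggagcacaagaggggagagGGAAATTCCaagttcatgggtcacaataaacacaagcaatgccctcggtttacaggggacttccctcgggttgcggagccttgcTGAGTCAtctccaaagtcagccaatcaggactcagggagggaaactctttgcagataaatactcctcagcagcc
Cxcl2: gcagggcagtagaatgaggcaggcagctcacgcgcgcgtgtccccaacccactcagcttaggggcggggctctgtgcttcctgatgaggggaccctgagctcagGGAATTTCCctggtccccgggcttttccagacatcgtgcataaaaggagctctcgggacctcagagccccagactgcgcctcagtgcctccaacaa
The AP-1 motif is held by 3.38% of the 8745 promoters. A match of letters describes the sequence and does not show that a factor was bound.

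Among growth factors, Fgf1 rose from 2.98, 1.83 and 2.74 CPM to 35, 38.8 and 38.7 CPM (log2 change 3.89, SE 0.105, adjusted p = 5.51e-22). FGF1 is an FGF ligand without a signal peptide that binds all FGF receptors. Fgf21, the hepatokine that the series title names, had 1 read in the 3 control libraries and 3 in the ferroptotic ones, so it was not measurable in these cells at this depth. Pdgfb, a mitogen of mesenchymal cells, fell from 144.9, 142.8 and 153.8 to 34.8, 37.3 and 36.7 CPM (log2 change -2.02). Angpt1, the agonist of the TIE2 receptor, rose by 1.44. Igfbp4, which binds insulin-like growth factors, rose from 231.6, 209.3 and 216.5 to 608.6, 652.8 and 632.5 CPM (log2 change 1.53). Gdf15, a stress hormone, did not pass the test, at 142.3 and 148.5 CPM (adjusted p = 0.225).

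Of 27 measured genes in the list of secreted proteases 12 rose and 9 fell (77.8% called), and of 22 protease inhibitor genes 6 rose and 9 fell (68.2%), against 58.1% of all genes. The protease list also holds other secreted enzymes, among them Amy1 and Enpp2, which are not proteases. Mmp13, a collagenase, fell from 47.3, 64.5 and 54.2 to 6.74, 5.25 and 5.70 CPM (log2 change -3.23). Ccn1, a matricellular protein induced by YAP and serum response factor, fell from 344.4, 346.6 and 351.7 to 47.7, 44.1 and 46 CPM (log2 change -2.92), and Ccn2 by 0.83. Ankrd1, a cytoplasmic and nuclear protein rather than a secreted one, is set beside them as another widely used YAP target and is among the 10 largest falls outside the classes, from 286.9, 318.9 and 320.1 to 42.1, 36.6 and 36.6 CPM (log2 change -3.01). Enpp2, which encodes autotaxin, the enzyme that makes lysophosphatidic acid, rose from 2.00, 1.22 and 1.48 to 10.6, 11.2 and 9.62 CPM (log2 change 2.73). Of 19 matricellular genes 13 rose and 5 fell (94.7% called, all genes 58.1%). Fbln1, a fibulin of basement membranes, rose from 11.2, 8.39 and 7.49 to 50.5, 51.5 and 48.9 CPM, Sparc rose by 1.16, and Tnc fell by 1.33 on the log2 scale. The rise of Fbln1 was as large without library 3, at 2.50.

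The promoters of Mmp13 and Ankrd1 are shown because both genes fell and each holds a match, to the AP-1 motif in Mmp13 and to the TEAD motif in Ankrd1. Whether either factor family had a part in these falls was not tested. In Mmp13 (chr9:7272314-7272513, plus strand) the capitals mark the AP-1 motif TGACTCA at bases 35 to 29 before the start. In Ankrd1 (chr19:36119845-36120044, minus strand) they mark GGAATG, the other strand of the TEAD motif CATTCC, at bases 123 to 118, a motif held by 11.4% of promoters.
Mmp13: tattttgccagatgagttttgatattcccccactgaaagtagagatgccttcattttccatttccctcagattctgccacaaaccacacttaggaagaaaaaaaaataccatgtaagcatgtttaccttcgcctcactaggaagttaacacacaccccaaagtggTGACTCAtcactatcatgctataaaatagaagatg
Ankrd1: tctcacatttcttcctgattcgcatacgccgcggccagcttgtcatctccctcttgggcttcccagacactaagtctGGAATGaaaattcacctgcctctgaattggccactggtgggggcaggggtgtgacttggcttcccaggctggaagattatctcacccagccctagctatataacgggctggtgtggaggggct
Shares of 12 motifs were also computed in changed and other genes, but too few of the changed genes have a promoter in the table used, and those shares are not reported.

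Of 13 measured plasma transport proteins and apolipoproteins 7 rose and 3 fell (76.9% called, all genes 58.1%). Alb, serum albumin, read 37.5, 34.5 and 30.5 CPM in control and 297.9, 322.1 and 298.9 CPM in ferroptotic medium, and the difference was many times the spread in either group (log2 change 3.16, SE 0.0513, adjusted p = 9.57e-27). Trf, the iron carrier transferrin, rose from 395.6, 398.5 and 419.5 to 1256, 1384 and 1334 CPM (log2 change 1.71). Lbp, which presents bacterial lipopolysaccharide, rose by 1.31, from 266.1 to 658.7 CPM, and Itih2, whose protein binds hyaluronan, by 1.89. Lcn2, a siderophore-binding acute phase protein, fell from 335.1, 323.6 and 317.5 to 102.7, 108.7 and 98.8 CPM (log2 change -1.66). Of 20 measured complement and acute phase genes 11 rose and 4 fell (75.0% called). The Alb promoter (chr5:90460670-90460869, plus strand) is shown because Alb had the largest rise among plasma proteins. Capitals mark the C/EBP motif TTGCNNAA on the other strand at bases 94 to 87 and the NF-Y motif CCAAT at bases 56 to 52 and, on the other strand, 15 to 11. The last motif is common, at 39.7% of promoters, and the C/EBP motif is held by 7.9%. A motif of the liver factor HNF1 was not among the 12 motifs searched, so any match to it is left in lower case. The capitals are therefore not a full list of the motifs in this promoter.
Alb: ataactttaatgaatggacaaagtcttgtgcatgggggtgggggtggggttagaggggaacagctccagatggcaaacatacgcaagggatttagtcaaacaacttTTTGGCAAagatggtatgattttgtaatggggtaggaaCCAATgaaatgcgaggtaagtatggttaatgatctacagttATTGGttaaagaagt
Of the C/EBP genes, Cebpb fell from 491.9, 416.7 and 534.7 to 357.4, 362 and 350.3 CPM (log2 change -0.43), Cebpd and Cebpg fell by 0.87 and 0.16, and Cebpa had 1 read in the control and 1 in the ferroptotic libraries.

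**Figure D4:**
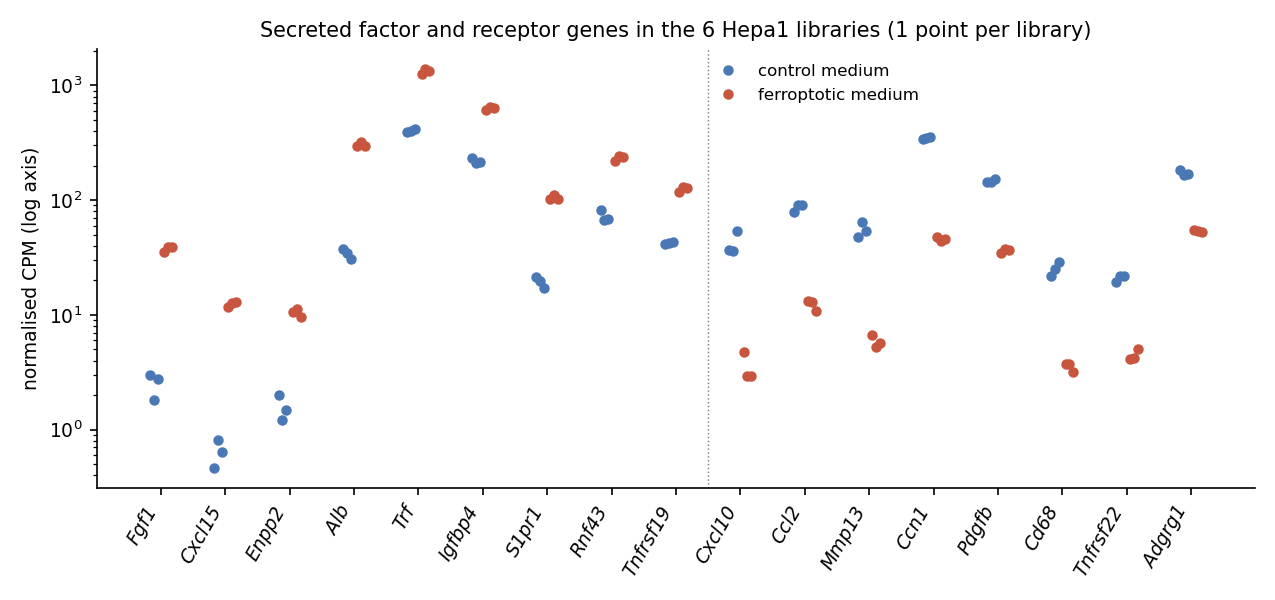
Normalised CPM on a log axis in each of the 3 control (blue) and 3 ferroptotic (red) Hepa1 libraries for 17 secreted factor and receptor genes, those that rose to the left of the dotted line and those that fell to the right. Genes were chosen among those whose groups do not overlap, as 62.6% of all genes tested do not, so the gap itself is no finding; its size is shown, as for Fgf1 (at most 2.98 against at least 35 CPM) and Ccn1 (at least 344.4 against at most 47.7 CPM).

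Of 208 measured receptor genes 67 rose and 87 fell (74.0%, against 58.1% of all genes), and 19 rose and 17 fell at least 2-fold (17.3%, against 6.57%). Among receptor genes that averaged 5 CPM or more in either group, the largest rise was that of S1pr1, a receptor of the lipid sphingosine-1-phosphate, at 21.3, 19.9 and 17 CPM in control and 102.2, 110.5 and 102.6 CPM in ferroptotic medium (log2 change 2.44, SE 0.0599, adjusted p = 1.03e-22). Gprc6a, which senses amino acids and cations, rose by 2.40 from 1.34 to 7.13 CPM. Il1r1, the receptor of interleukin-1, rose by 1.32 from 3.49 to 8.73 CPM, Dhx58, the RNA sensor LGP2, by 1.63, and Itga1, a collagen-binding integrin chain, by 1.62. Ffar2, a receptor of short-chain fatty acids, had 0, 1 and 0 reads in control medium and 14, 19 and 20 in ferroptotic medium.

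Of 19 measured WNT, Notch and Hedgehog receptor genes 9 rose and 7 fell (84.2% called, all genes 58.1%). Rnf43, a ubiquitin ligase that removes WNT receptors and is itself a target of beta-catenin, read 82.3, 66.6 and 69.1 CPM in control and 221, 241.2 and 236.5 CPM in ferroptotic medium (log2 change 1.68, SE 0.0523, adjusted p = 1.21e-20). Lgr5, a receptor of R-spondins, rose from 53.8, 52.4 and 47.3 to 115.2, 122.8 and 127.2 CPM (log2 change 1.25), and Tnfrsf19 (TROY) from 41.2, 42.3 and 43 to 117.1, 130.4 and 127.7 CPM (log2 change 1.57). The transcription factor genes Sp5 and Tbx3, also known as beta-catenin targets, rose by 1.07 and 0.99. Axin2, Ccnd1, Znrf3, Lgr4, Lef1, Ctnnb1 and Axin1 were looked up after these values were seen. Nkd1 and Bambi were looked up as well, and their values are not given here. Axin2, the usual reporter of this pathway, read 244, 215.7 and 220.7 CPM and then 490.3, 494.4 and 482.8 CPM (log2 change 1.11). Ccnd1 rose by 1.24, Znrf3 by 0.65 and Lgr4 by 0.33, Lef1 fell by 1.03, and Ctnnb1 and Axin1 did not pass the test (log2 changes -0.01 and -0.03, adjusted p = 0.8 and 0.493). Cdon, a coreceptor of Hedgehog ligands, rose from 117.6, 108.2 and 99 to 300.9, 300.4 and 303.3 CPM (log2 change 1.48).

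Among receptor falls, 8 of 13 measured TNF receptor genes fell and 4 rose (92.3% called, all genes 58.1%). Tnfrsf22, a decoy receptor of TRAIL, fell from 19.4, 21.7 and 21.9 to 4.10, 4.19 and 5.08 CPM (log2 change -2.23). Of 23 genes in the list of receptor tyrosine kinases 12 fell and 5 rose (73.9% called), and Met, the receptor of hepatocyte growth factor, fell from 134.9 to 81.3 CPM (log2 change -0.73). That list also holds growth factor receptors that are not kinases, among them Igf2r, which rose, and Nrp2, which fell. Adgrg1 (GPR56), an adhesion receptor that binds collagen III, fell from 181.6, 166.6 and 170.2 to 55, 53.5 and 52.7 CPM (log2 change -1.69). Tfrc, the transferrin receptor, fell from 173.7, 198.7 and 179.5 to 84.1, 79.2 and 75.4 CPM (log2 change -1.21, SE 0.0472, adjusted p = 1.87e-18), while its ligand gene Trf rose. Plaur, the receptor of urokinase, fell by 1.14, and Gprc5a, a retinoic acid-induced orphan receptor, by 1.30. Cd68, a lysosomal glycoprotein used as a macrophage marker, fell from 21.7, 25.1 and 28.8 to 3.70, 3.77 and 3.19 CPM (log2 change -2.83).

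Long noncoding RNAs were called less often than genes at large, 96 up and 87 down of 520 measured (35.2%, against 58.1%), but 33 rose and 26 fell at least 2-fold (11.3%, against 6.57%). Their levels were mostly low and these counts depended on the filter, at 59 up and 48 down with none and 19 and 12 with a filter of 1 CPM in 3 libraries, and 52 rose without control library 1. Few of them have a known role, so most are given by name and value only. Tbx3os1, which overlaps Tbx3 on the other strand, rose from 2.62, 2.65 and 1.79 to 8.64, 9.39 and 8.89 CPM (log2 change 1.92, SE 0.137, adjusted p = 1.4e-12). The strand setting of the counts is not given, so its reads may not be fully apart from those of Tbx3, which itself rose from 159.9 to 317.3 CPM. C630043F03Rik rose by 1.80, E130307A14Rik by 1.74 and Gm4544 by 1.67. Gm20186 fell from 14.6, 15.1 and 16.4 to 3.85, 3.39 and 4.16 CPM (log2 change -2.01). Wincr1, first described as a WNT-induced noncoding RNA of skin, fell from 2.98, 3.46 and 3.11 to 0.699, 0.530 and 0.483 CPM (log2 change -2.47). Mirt1 fell by 1.20.

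Gas5, a host of small nucleolar RNAs that is stabilised when translation is blocked, read 312.5, 336 and 342.2 CPM in control and 169.1, 164.9 and 158 CPM in ferroptotic medium (log2 change -1.01, SE 0.0382, adjusted p = 9.18e-19). Of 13 measured hosts of small nucleolar RNAs 7 fell and 1 rose, a share called (61.5%) near that of all genes (58.1%), and Snhg12 fell by 0.66. Malat1, an abundant RNA of nuclear speckles, fell from 63, 65.7 and 48.3 to 31.4, 30 and 32.6 CPM, and Neat1, the scaffold of paraspeckles, from 6.61 to 4.24 CPM (log2 changes -0.91 and -0.63). Xist, the RNA of the inactive X chromosome, was present at 276.7, 237 and 166.8 CPM in control and 171.4, 158.4 and 176 CPM in ferroptotic medium. These groups overlap, and its log2 change of -0.43 passed in edgeR but not in DESeq2. The imprinted H19 and Meg3 had 2 and 1 reads in control and 5 and 2 in ferroptotic medium, too few to measure.

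Cell identity was read from lists of markers. The hepatoma label was borne out only in part: Alb, Afp, Trf, Gata4, Foxa1, Foxa2, Krt8 and Krt18 were measured, but only 11 of 44 plasma protein genes and 12 of 53 hepatocyte enzyme and transporter genes were. Hnf4a, the central hepatocyte factor, had 1 read in control and 0 in ferroptotic medium, Epcam 0 and 0, and Cdh1 1 and 2. Within this background 8 of the 11 plasma protein genes rose and 2 fell (90.9% called, all genes 58.1%; median log2 change 0.59, against 0.00). The summed level of the list was 836.3 to 866.3 CPM in control and 2132 to 2286 CPM in ferroptotic medium, mostly Alb and Trf. Gc, the vitamin D carrier, went the other way, with 12, 12 and 16 reads in control medium and 0 in each ferroptotic library. Of the 12 enzyme and transporter genes 9 rose and 3 fell. Cyp7b1, an oxysterol hydroxylase of bile acid synthesis, rose from 2.93, 3.87 and 3.06 to 10.9, 10.4 and 12.1 CPM (log2 change 1.76), and Abcc2, a canalicular export pump, fell by 0.66.

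Of 15 measured genes of the liver transcription factor network 5 rose and 3 fell, none by 2-fold, and 7 did not pass the test. The share called, 53.3%, was near the 58.1% of all genes. Foxa1 rose by 0.35 and Zbtb20, a repressor of the fetal gene Afp, by 0.41, and Foxa2 read 18.7 and 18.4 CPM (adjusted p = 0.786). Afp read 56.1, 62.7 and 60.4 CPM in control and 68.3, 65.4 and 63.7 CPM in ferroptotic medium, a log2 change of 0.14 that was lost in DESeq2, so the rise of Alb had no counterpart of like size in Afp. Gpc3, an oncofetal proteoglycan of liver tumours, rose from 86, 81.2 and 79.1 to 168.5, 171.6 and 170.1 CPM (log2 change 1.05).

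Of 20 measured genes of simple epithelium and junctions 15 fell and 3 rose (28.8 and 29.3% for all genes), with a median log2 change of -0.29. Dsp, which anchors desmosomes to keratins, fell from 521.1, 530.3 and 519 to 282.3, 277.5 and 278.5 CPM (log2 change -0.91), Cldn3, a claudin of tight junctions, fell by 0.83 and Crb3, a polarity protein, by 1.08. The keratin genes of simple epithelium moved little, Krt8 by 0.21 and Krt18 by -0.18. Of 9 measured genes of squamous epithelium and the cornified envelope 7 fell and 1 rose (88.9% called; median log2 change -1.33). Sprr1a, a cornified envelope precursor, fell from 52.5, 58.1 and 61.3 to 18.1, 16.4 and 15.9 CPM (log2 change -1.77), and Krt80 by 1.33. The 1 rise was that of Krt4, a mucosal keratin, from 0.154, 0.356 and 0.211 to 4.70, 4.88 and 3.77 CPM (log2 change 4.17). Vil1, which bundles actin in microvilli, rose from 0.720, 1.02 and 0.527 to 5.54, 5.94 and 5.46 CPM (log2 change 2.89).

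Markers of other cell types were measured in part. Of 25 intestine and pancreas genes 5 were measured and all 5 rose (Lgr5, Cela1, Vil1, Krt20 and Amy1), 4 of them at least 2-fold. Among all genes 29.3% rose, and 4.5% rose at least 2-fold. The other 20 had too few reads to test. A gene low in control medium, such as Amy1 at 5, 12 and 11 reads, can pass the filter through ferroptotic medium alone. The shared direction is thus in part set by the filter. The list's sum went from 129.5 to 142.8 CPM in control to 237.6 to 247.4 CPM in ferroptotic medium. The call of Cela1 was lost with DESeq2 (adjusted p = 0.147). Amylase genes are near-identical, so the rise of Amy1 is uncertain as to its locus. Of 15 measured fibroblast genes 11 rose and 1 fell (29.3 and 28.8% for all genes), but 3 of the rises, those of Col1a2, Fbn1 and Ogn, were lost without library 3. Col3a1 rose by 1.22, and by 0.67 without library 3. Col1a1, the first chain of type I collagen, read 1698, 1398 and 1449 CPM in control and 2249, 2204 and 2291 CPM in ferroptotic medium, a log2 change of 0.57 that was 0.56 without library 3. Hepa1 cells thus carried Col1a1 transcripts in all 6 libraries while Col1a2 was under 1.2 CPM in 5 of them. The summed fibroblast list was 4180 to 4697 CPM in control and 5068 to 5152 CPM in ferroptotic medium, and library 3 (5147 CPM) did not stand out in it because Col1a1, Fn1, Vim and Dcn make up most of the sum. Of 8 measured macrophage genes 4 rose and 3 fell (87.5% called, all genes 58.1%). Adgre1, which encodes F4/80, had 1, 1 and 0 reads in control and 39, 44 and 35 in ferroptotic medium, while the defining genes Spi1 and Cd163 had at most 3 reads in any library. The level of T, NK and mast cell markers was at most 1.45 CPM in sum in any Hepa1 library. A change in the share of cells within a culture and a change in RNA per cell cannot be told apart in these bulk libraries.

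**Figure D5:**
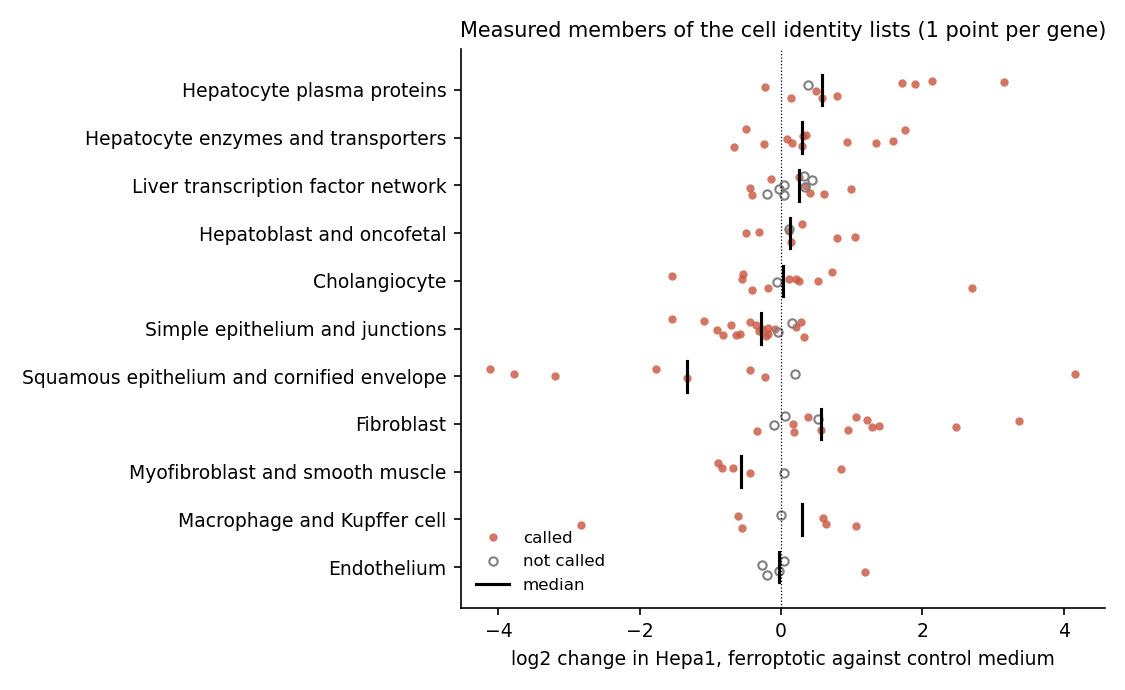
Log2 change of each measured member of 11 cell identity lists in Hepa1; red points passed the edgeR test, open points did not, and the line is the median of all measured members. Gc and Adgre1, with 3 or fewer reads in a whole group, are not drawn. Most epithelial and squamous genes lie below 0 and most plasma protein genes above it.

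Outside these classes, the 10 top rises among protein-coding genes above the level floor of 5 CPM included Ccnb2, which encodes a cyclin of mitosis. It read 7.92, 5.80 and 5.17 CPM in control and 50.9, 54.3 and 53.8 CPM in ferroptotic medium (log2 change 3.07, SE 0.0862, adjusted p = 1.27e-21). Cdkn3, a phosphatase of cyclin-dependent kinases, Ndc80 and Ska1, which act at the kinetochore, Hmmr, Cdca3 and Neil3, a DNA glycosylase, rose by 2.91 to 3.01. Greb1, an oestrogen-responsive gene, rose by 3.85, Akr1c19, an aldo-keto reductase, by 3.19 and Gbp3, an interferon-induced GTPase, by 3.01. The Ccnb2 promoter (chr9:70421555-70421754, minus strand) is shown because its 200 bases before the start hold 3 copies of the NF-Y motif CCAAT, in capitals, at bases 87 to 83, 54 to 50 and 21 to 17.
Ccnb2: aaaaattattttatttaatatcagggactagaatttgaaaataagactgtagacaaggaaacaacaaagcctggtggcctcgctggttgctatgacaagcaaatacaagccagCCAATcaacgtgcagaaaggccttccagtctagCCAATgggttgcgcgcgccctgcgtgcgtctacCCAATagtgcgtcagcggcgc
Among the 10 largest falls beside Ankrd1 were Ptpn14, a phosphatase that restrains YAP (-2.40), Dusp1, a phosphatase of MAP kinases (-2.13), Hilpda, a lipid droplet protein induced by hypoxia (-2.08), and the immediate early gene Ier3 (-2.05).

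The same media were given to MEFs. The difference of responses (Hepa1 minus MEF) passed the interaction test in edgeR for 44.2% of 15627 genes. Among all 14441 genes tested in MEFs, 27.8% were called upward and 27.2% downward. Of the 592 genes at least 2-fold higher in Hepa1, 416 were tested in MEFs, where 250 were called upward, 71 downward and 95 not called. Of the 273 at least 2-fold lower, 174 were tested in MEFs, with 94 called downward and 42 upward. Foxm1 rose by 1.05 and Mxd3 by 1.38 in MEFs, less than in Hepa1. Their differences of 1.09 and 1.37 were called in the interaction test (adjusted p = 7.56e-08 and 0.00293). Junb fell by 1.39 in MEFs, and its interaction was not called (adjusted p = 0.189). The level of Mxd3 in MEFs was low, at 0.46 CPM in control and 1.27 CPM in ferroptotic medium. Trf rose by 1.71 in Hepa1 and fell by 1.37 in MEFs (difference 3.09, SE 0.0923, adjusted p = 3.4e-29), and Alb had no reads in MEFs. Of the 34 secreted factor genes at least 2-fold higher in Hepa1, 27 were tested in MEFs and 11 were called downward there, among them Trf, Fbln1, Itih2 and Metrn. Egr1 fell by 1.22 in Hepa1 and rose by 0.76 in MEFs, and Malat1 fell by 0.91 in Hepa1 and rose by 1.08 in MEFs. Cxcl15 and Fgf1 rose in both, by 1.25 and 2.20 in MEFs, and Gdf15, which did not pass in Hepa1, rose by 1.76 in MEFs. The rise of Fgf1 in MEFs was near the floor, at 0.138 CPM in control and 0.684 CPM in ferroptotic medium.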

How the data were processed

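RNA was sequenced from 6 Hepa1 and 6 MEF libraries, each prepared from 100 ng of total RNA. The authors deposited raw read counts per Ensembl gene, and the submitters' processing notes name FastQC 0.11.9, Trimmomatic 0.39, STAR 2.7.10a, HTSeq 0.9.1 and GRCm38; which annotation release and which strand setting were used is not stated there. Of 55487 genes 260 had no symbol, and 5 summary lines were left out of library sizes (reads in no gene were 2.297 to 2.576% in Hepa1). Of the genes named in the text, 68 overlap a gene on the other strand, from which reads may not be separable. Members of near-identical families are uncertain because a read can map to several of them.

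The deposited counts were filtered with filterByExpr, scaled by TMM and tested with edgeR 4.0.16 (quasi-likelihood F-test; R 4.3.3, limma 3.58.1) over the 6 Hepa1 libraries; p-values were Benjamini-Hochberg adjusted over all genes tested and called under 0.05. The response of Hepa1 minus that of MEFs was tested as an interaction over 12 libraries. Since separate cultures are not stated, these p-values reflect library-to-library spread only, which may be technical.

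The classes, lists and members were chosen with earlier results of these data known. Named genes are, per class and direction, up to 8 called genes with the largest change, a group mean of at least 5 CPM (2 for long noncoding RNAs) and no overlap between groups, the 10 largest other protein-coding genes per direction, up to 2 per family of at least 5 measured members, and a fixed set; genes outside the rule were named after their values were seen, among them Axin2, Ccnd1, Lef1, Cebpd, Cebpg, Cela1, Krt20, Ogn, Fbn1, Col3a1 and the fibroblast genes of library 3. Promoters are from RefSeq (GRCm38.p6) and were found for 8745 of 10898 tested protein-coding genes, but for only 75.4% of those at least 2-fold higher and 71.1% of those lower, so the shares computed in these sets are void and not reported. Some results are not reported here. Alternatives were DESeq2 1.42.0, other scalings and filters, a replicate block and leaving out each library.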

Additional observations from a re-analysis of the deposited data

Results flagged for a closer look

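For 28 of the described genes that the naming rule picked, the medium response was called in opposite directions in Hepa1 and in MEFs. The difference itself was also called for them in the interaction test of edgeR. Described genes outside the rule were not counted. The interaction test called 44.2% of all 15627 genes. Both conditions were met by 71 of all 592 genes at least 2-fold higher in Hepa1 and by 42 of the 273 lower. The 9 given here changed by at least 1 in Hepa1 and 0.5 in MEFs on the log2 scale. Ccl2 had the largest difference, a log2 change of -2.82 in Hepa1 and 2.06 in MEFs (difference -4.88, SE 0.375, adjusted p = 5.7e-15), at MEF levels of only 0.228 and 1.03 CPM. Zeb2 fell in Hepa1 and rose in MEFs with a difference of -2.31, and so did Egr1 with a difference of -1.98. The other 6 genes rose in Hepa1 and fell in MEFs. Their differences were 3.22 for Fbln1, 3.09 for Trf, 2.94 for S1pr1, 2.57 for Itih2, 1.96 for Metrn and 1.83 for Lbp.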

How the results depend on the processing

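Of 1771 log2 changes of single genes under the alternatives, 1723 kept their direction and their side of the threshold, 44 lost the call, 2 gained it and 2 changed sign. The sign changes were those of Fstl1 and Mgp, both at -0.01 without ferroptotic library 3 and at most 1.73 and 2.47 when another library was left out. Of 322 counts, 10 moved by more than 1.5 times, and the cause was not tested. With DESeq2, long noncoding RNAs called numbered 56 up and 51 down. Without a filter on low counts, changes of at least 2-fold numbered 64 up for secreted factors, 48 up and 15 down for cell identity, and 59 up and 48 down for long noncoding RNAs; with a filter of 1 CPM in 3 libraries the last were 19 and 12. Leaving out 1 library gave 38 to 52 long noncoding RNAs at least 2-fold higher, the highest without control library 1. Same-numbered control and ferroptotic libraries did not deviate together (correlations -0.0314, -0.0456 and -0.0566), and no library correlated best with its own number. With the replicate number as a block, 7437 genes were called (3760 up and 3677 down), and in the comparison with MEFs 6863; the block moved no count by over 1.5 times. DESeq2 called 6375 genes. The calls of Afp, Cela1, Dcn, Fbn1, Gata4 and Xist were lost under at least 1 alternative. Genes with under 3 reads per library could not be measured at this depth.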

Other observations

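In the opposite direction, 10 genes with at least 100 CPM in Hepa1 and at most 1 read each over the 3 MEF control libraries had 2, 1 and 1 reads as a set in those libraries, 4 and 2 in MEF ferroptotic libraries 1 and 2, and 40 in MEF ferroptotic library 3. Bach1 itself, which the labels give as knocked out in the MEFs and wild type in Hepa1, read 140.7, 149.2 and 143.7 CPM in Hepa1 in control and 124.8, 114.1 and 118.5 CPM in ferroptotic medium (log2 change -0.28, edgeR adjusted p = 8.77e-07).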
